A study of Rattus norvegicus with 3 samples.

Results

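Of the 4736 genes that the platform's annotation names alone on at least 1 probe set, 10 immediate early genes are described here: Egr1, Egr2, Nr4a1, Nr4a2, Nr4a3, Klf4, Klf10, Ier3, Zfp36 and Cebpd. Every probe set annotated to only 1 of these symbols was read, 24 in all, and all 10 genes had at least 1. The 10 genes were selected from the measured differences between these same 3 arrays together with their known function, so the differences below are descriptions and carry no test. Rat RNA was hybridised to 3 Affymetrix arrays, 1 for each time label of a time course, which are 0.0 h, 0.1 h and 1.0 h. The source of every array is labelled as pineal gland and adrenal medulla together. The labels name no treatment, strain, age or number of animals, nor how the tissues were combined, and whether 0.1 h is a true time is not settled by the labels. By its title the 0.0 h array is sample 2, the 0.1 h array sample 1 and the 1.0 h array sample 3, an order other than that of the times.

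Immediate early genes are transcribed without prior protein synthesis when a cell is stimulated. Calcium, cyclic AMP and mitogen-activated kinases act on transcription factors that already sit at their promoters, such as CREB at cyclic AMP response elements and SRF at CArG boxes. Many of the products are themselves transcription factors: Egr proteins are zinc finger activators, Nr4a proteins are orphan nuclear receptors and Klf proteins are zinc finger factors of GC-rich sites. Others shape the response in other ways. Zfp36 binds AU-rich elements and hastens mRNA decay, Ier3 bears on cell survival, and Cebpd is a leucine zipper factor of inflammation. In the rat pineal gland, noradrenaline released at night raises cyclic AMP and is known to induce immediate early genes.

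The promoters of Egr1, Egr2 and Nr4a1 are shown because at least 1 probe set of each was higher on both later arrays. That of Nr4a2 is shown because this family member was nearly level on its brighter probe set. Both probe sets of Klf4 were also higher on both later arrays. Its window, which held no CArG box and no cyclic AMP response element core, is not printed. The Zfp36 probe set rc_AA800613_at was higher on both too, with log2 differences of 0.07 and 0.67, and the Zfp36 window is not printed either. The printed windows are thus not those of all genes that were higher. RefSeq promoter windows (assembly GRCr8, 250 bases before to 50 after a gene's start, 300 in all, on the gene's own strand) were matched by symbol for 6 of the 10 genes, namely Egr1, Egr2, Nr4a1, Nr4a2, Klf4 and Zfp36. Capitals mark CArG boxes and the core of the cyclic AMP response element, on either strand, so that TGACG on the other strand reads as CGTCA.

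The Egr1 window is chr18:26736828-26737127 (plus strand), that of Egr2 chr20:21054392-21054691 (minus strand), that of Nr4a1 chr7:134259888-134260187 (plus strand) and that of Nr4a2 chr3:62104838-62105137 (minus strand).
Egr1: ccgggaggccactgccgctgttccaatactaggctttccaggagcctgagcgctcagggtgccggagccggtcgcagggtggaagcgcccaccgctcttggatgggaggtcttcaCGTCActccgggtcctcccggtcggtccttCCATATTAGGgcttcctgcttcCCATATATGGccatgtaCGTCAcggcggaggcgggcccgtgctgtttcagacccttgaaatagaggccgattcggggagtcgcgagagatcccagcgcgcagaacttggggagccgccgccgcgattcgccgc
Egr2: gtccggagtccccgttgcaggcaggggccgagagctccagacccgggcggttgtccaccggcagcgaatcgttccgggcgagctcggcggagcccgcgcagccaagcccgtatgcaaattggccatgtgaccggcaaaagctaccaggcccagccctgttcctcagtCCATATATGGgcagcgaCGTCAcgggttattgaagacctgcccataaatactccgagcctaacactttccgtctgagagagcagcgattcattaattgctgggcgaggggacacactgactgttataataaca
Nr4a1: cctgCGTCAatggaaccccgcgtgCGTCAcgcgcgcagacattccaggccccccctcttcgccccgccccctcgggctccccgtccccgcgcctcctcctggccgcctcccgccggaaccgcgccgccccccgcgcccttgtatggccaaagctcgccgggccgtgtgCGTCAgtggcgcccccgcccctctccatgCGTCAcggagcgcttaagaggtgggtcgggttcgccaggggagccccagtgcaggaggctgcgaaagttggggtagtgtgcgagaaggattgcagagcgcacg
Nr4a2: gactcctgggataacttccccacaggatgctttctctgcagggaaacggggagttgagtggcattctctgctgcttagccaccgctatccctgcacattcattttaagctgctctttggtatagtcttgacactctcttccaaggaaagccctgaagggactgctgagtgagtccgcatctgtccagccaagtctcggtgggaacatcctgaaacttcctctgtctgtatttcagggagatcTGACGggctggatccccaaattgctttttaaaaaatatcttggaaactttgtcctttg

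The Egr1 window held 2 CArG boxes, from -105 to -96 and from -83 to -74 relative to the start, and 2 cyclic AMP response element cores, from -135 to -131 and from -66 to -62. The Egr2 window held 1 CArG box and 1 such core, at the same positions as the proximal pair of Egr1, from -83 to -74 and from -66 to -62. Nr4a1 had no CArG box in its window and 4 cores, the nearest from -53 to -49, and Nr4a2 had 1, from -8 to -4. Zfp36 had 1 CArG box, from -32 to -23, and Klf4 had neither motif. The core was searched as TGACG on both strands and occurs in 21.2% of all 33469 promoter windows of this length, and the CArG box, which is a pair of C, any 6 of A or T and a pair of G, occurs in 1.64%. An EGR site, GCGNGGGCG, lay in the windows of Nr4a1 and Zfp36 and in 4.98% of all windows. In none of the 6 windows was there a full cyclic AMP response element, TGACGTCA, which 1.83% of all windows held, an Nr4a monomer site, AAAGGTCA, held by 1.43%, or an AP-1 site, TGANTCA, held by 7.33%. A GC box, GGGCGG, lay in 3 of the 6 windows and in 33.06% of all, and in Nr4a1 and Zfp36 it overlapped another match, the EGR site in the former and the CArG box in the latter. A TATA box, TATAAA, lay in the Klf4 window and in 14.22% of all. The core lies inside the full element where that occurs, so those searches overlap. The windows of Egr1 and Zfp36 began at the outermost start of the gene, while those of Klf4, Egr2, Nr4a2 and Nr4a1 lay 590, 760, 11039 and 12985 bases inside it. A match is a run of letters and no measure of binding.

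**Figure D1:**
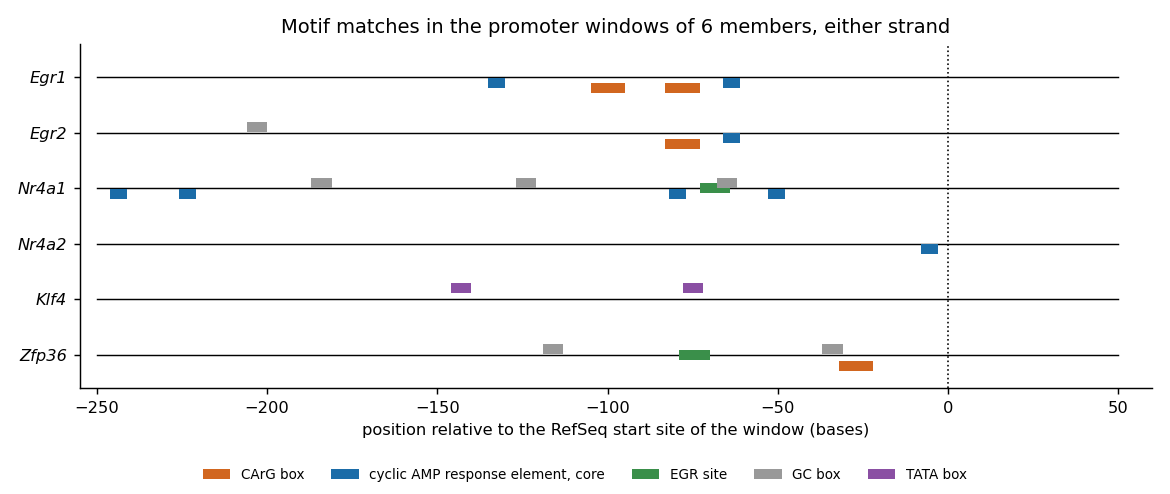
Motif matches on either strand in the RefSeq promoter windows of 6 of the genes; the x axis is the position in bases relative to the start site of the window, each line is a gene and each coloured block a match. Egr1 and Egr2 share a CArG box from -83 to -74 and a cyclic AMP response element core from -66 to -62.

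Deposited values were linear intensities, 1 per probe set. A floor for dim probe sets was set at the 40th percentile after scaling, which corresponds to 247.7 in deposited units on the 0.0 h array, 264.8 on the 0.1 h array and 282.8 on the 1.0 h array. Of the 24 probe sets, 16 lay above the floor on all 3 arrays, and these covered 9 of the 10 genes. Another 6 were above it on only 1 or 2 arrays, including all 3 probe sets of Nr4a3, and 2 (1 each of Klf10 and Cebpd) on none. Fold differences are given after scaling, only where both arrays were above the floor. Levels of different probe sets are not comparable with each other. With 1 array per label there is no replicate error and no p-value, and so little precision.

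The arrays differed in other respects too. For the beta-actin control, the 3' to 5' intensity ratio, a sign of RNA degradation when high, was 10.4, 17.8 and 44.4 at 0.0 h, 0.1 h and 1.0 h, and that of GAPDH was 15.3, 18.6 and 14.1. The mean log2 level of 9 hybridisation spike-in probe sets after scaling was 12.92, 13.19 and 12.72. Pinealocyte markers were present, with 10 of 11 that had a probe set above the floor on at least 1 array, whereas 5 of 11 adrenal medulla markers, the chromaffin genes Th and Dbh among them, were below it on all 3. The other 6 (Pnmt, Chgb, Npy, Penk, Scg2 and Ddc) were above it on all 3 arrays, Pnmt with 607.3, 638.8 and 532.2. Leukocyte markers were mixed, with a summed intensity over 14 genes of 7834, 9841 and 10303. At 0.1 h against 0.0 h, 2 of 7 measured markers (Ptprc and Coro1a) were at least 2-fold higher and none lower. Over all probe sets, 6.32% were higher and 4.20% lower by that much. At 1.0 h against 0.0 h, 1 of 8 was higher (Coro1a, with 448.5, 892.8 and 1915) and 1 lower (Fcer1a, with 1264, 679.8 and 544.2). The shares over all probe sets there were 3.01% and 2.46%. The defining leukocyte gene Ptprc had 284.0, 702.3 and 520.9, the first not far above the floor of 247.7. Itgam was below the floor on all 3 arrays, as were 4 others of the 14. In bulk RNA, fewer cells of a type and less RNA per cell cannot be told apart. The part of RNA quality, spike-in level and leukocytes in the differences below was not tested.

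Egr1 is the zinc finger activator best known as a readout of neuronal activity. Its probe set AF023087_s_at read 37817 at 0.0 h, 121030 at 0.1 h and 99935 at 1.0 h, the order in which all intensities are given below. M18416_at, built on another sequence of the gene, had 2423, 7138 and 6163. Both were lowest at 0.0 h and, except under the spike-in scaling, highest at 0.1 h, with log2 differences between 1.0 h and 0.1 h of -0.37 and -0.30 that became 0.10 and 0.17 under that scaling. Relative to 0.0 h they were 3.28-fold (log2 1.71) and 3.02-fold (log2 1.59) higher at 0.1 h and 2.54-fold and 2.45-fold higher at 1.0 h. A further probe set, U75398_s_at, did not show this difference, with 621.9, 692.0 and 606.8 and log2 differences from 0.0 h of 0.19 and -0.09. The dimmest, rc_AI176662_s_at, had 78.61, 217.9 and 377.1 and was above the floor only at 1.0 h, where it was at least 1.46-fold higher than at 0.0 h, taking the floor as the level of the dim array. Passing the floor only there, it had to be higher, and this bound supports no count. So, of the 3 Egr1 probe sets with a measured level throughout, 2 exceeded 0.0 h by over 2-fold on both later arrays and the third did not. Probe sets with _s_at in their names can match more than 1 transcript.

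Egr2, a relative of Egr1 known for its role in Schwann cells, had 1 probe set with intensities of 3784, 6944 and 7195. Both later arrays were higher than 0.0 h by less than 2-fold, 1.88-fold at 0.1 h and 1.83-fold at 1.0 h. Between the later arrays the log2 difference was -0.04, which is within the SD of 0.56 of all probe sets (from the median absolute deviation).

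Among the nuclear receptors, Nr4a1 (Nur77) had the highest fold of the 16 probe sets at 0.1 h. U17254_g_at had 526.9, 2203 and 1811, which was 4.28-fold higher at 0.1 h than at 0.0 h (log2 2.10) and 3.30-fold higher at 1.0 h (log2 1.72). It ranked 16 of 4759 probe sets in the first comparison and 13 of 4792 in the second, counted from the highest. U17254_at, designed to the same sequence and so not independent, had 202.4, 626.6 and 405.5. It was below the floor at 0.0 h only and so had to be higher on the later arrays. Its bounds of at least 2.59-fold and at least 1.57-fold over 0.0 h support no count. Both probe sets were highest at 0.1 h, with log2 differences between 1.0 h and 0.1 h of -0.37 and -0.72, the former of which became 0.10 under the spike-in scaling.

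Nr4a3 (NOR-1) was not above the floor at 0.0 h on any of its 3 probe sets and so entered no fold against that array. X86003_at had 156.7, 661.1 and 672.0, at least 2.73-fold above 0.0 h on the 0.1 h array, with a bound of 2.61-fold on the 1.0 h array. The others were dimmer. rc_AI176710_at had 48.69, 267.8 and 290.1, barely above the floor on the later arrays, with bounds of at least 1.11-fold and at least 1.13-fold. rc_AI145834_at had 71.49, 110.7 and 469.9 and was above the floor only at 1.0 h, at least 1.82-fold higher than at 0.0 h. X86003_at and rc_AI176710_at were nearly level between the later arrays, with log2 differences of -0.07 and 0.02. A probe set that passes the floor only on the arrays where it is high had to differ, so these values support no count.

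Nr4a2 (Nurr1), known for its part in dopamine neurons, went otherwise. U01146_s_at had 1203, 1086 and 1210, with log2 differences from 0.0 h of -0.11 and -0.05, and was nearly level. L08595_at had 440.9, 141.4 and 226.6 and was above the floor only at 0.0 h. Passing the floor only there, it had to be lower on both later arrays, so its bounds of at least 1.63-fold and at least 1.62-fold support no count. No probe set of Nr4a2 was higher than at 0.0 h by 2-fold on a later array.

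Klf4, a zinc finger factor with roles in epithelia and in pluripotent cells, had the highest fold over 0.0 h at 1.0 h among the 16 probe sets with a measured fold (Nr4a3, with bounds only, is not among them). L26292_at had 967.5, 1876 and 3702 and L26292_g_at, designed to the same sequence, 710.9, 1256 and 1882. Both were lowest at 0.0 h, in between at 0.1 h and highest at 1.0 h. At 0.1 h they were 1.99-fold and 1.81-fold higher than at 0.0 h, just short of 2-fold in the first case. At 1.0 h they were 3.68-fold (log2 1.88) and 2.55-fold (log2 1.35) higher, ranking 8 and 43 of 4792 from the highest. Between the later arrays the log2 differences were 0.89 and 0.49 higher at 1.0 h, the former beyond and the latter within the SD of 0.56 of all probe sets.

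Klf10 (TIEG), a repressor induced by TGF-beta, was not higher by 2-fold on any array. rc_AI172476_at had 18269, 10849 and 19399 and was 1.65-fold lower at 0.1 h than at 0.0 h, with a log2 difference of 0.03 at 1.0 h. rc_AI071299_at was nearly level, with 497.5, 507.1 and 543.0. U88630_at was below the floor throughout, with 40.02, 57.20 and 31.70. The probe set with the lower value at 0.1 h was thus not matched by the other measured one, whose log2 difference there was 0.06.

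Zfp36 (tristetraprolin) gave different patterns on its probe sets. X63369cds_at had 391.4, 830.9 and 376.9, 2.17-fold higher at 0.1 h than at 0.0 h and 2.35-fold lower at 1.0 h than at 0.1 h. rc_AA800613_at had 1624, 1666 and 2689, level at 0.1 h with a log2 difference of 0.07 and 1.59-fold higher than 0.0 h at 1.0 h. One was highest at 0.1 h and the other at 1.0 h, and in the comparison of 1.0 h with 0.1 h they differed by 1.83 on the log2 scale. The median range for genes with several probe sets was 0.50 in that comparison.

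Ier3 had probe sets designed to the same sequence that also parted. X96437mRNA_at had 615.7, 1000 and 450.3, 1.66-fold higher at 0.1 h than at 0.0 h and 2.37-fold lower at 1.0 h than at 0.1 h. X96437mRNA_g_at had 452.1, 554.8 and 524.1 and was 1.13-fold lower in the latter comparison. Both were highest at 0.1 h, except that X96437mRNA_g_at was higher at 1.0 h, by 0.30 (log2), under the spike-in scaling. They differed in sign at 1.0 h against 0.0 h, with log2 differences of -0.51 and 0.16.

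Cebpd stayed within 2-fold everywhere. M65149_at had 1257, 1717 and 1588, and rc_AA946292_at had 1181, 1382 and 1090. Both were highest at 0.1 h, at 1.40-fold and 1.20-fold over 0.0 h, except under the spike-in scaling, where 1.0 h was above 0.1 h by 0.27 and 0.04 (log2) and rc_AA946292_at was at -0.02 at 0.1 h against 0.0 h. The differences from 0.0 h are within the SD of 0.53 (log2) of all probe sets. rc_AI045030_s_at never reached the floor, with intensities of 60.51, 36.11 and 46.61.

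**Figure D2:**
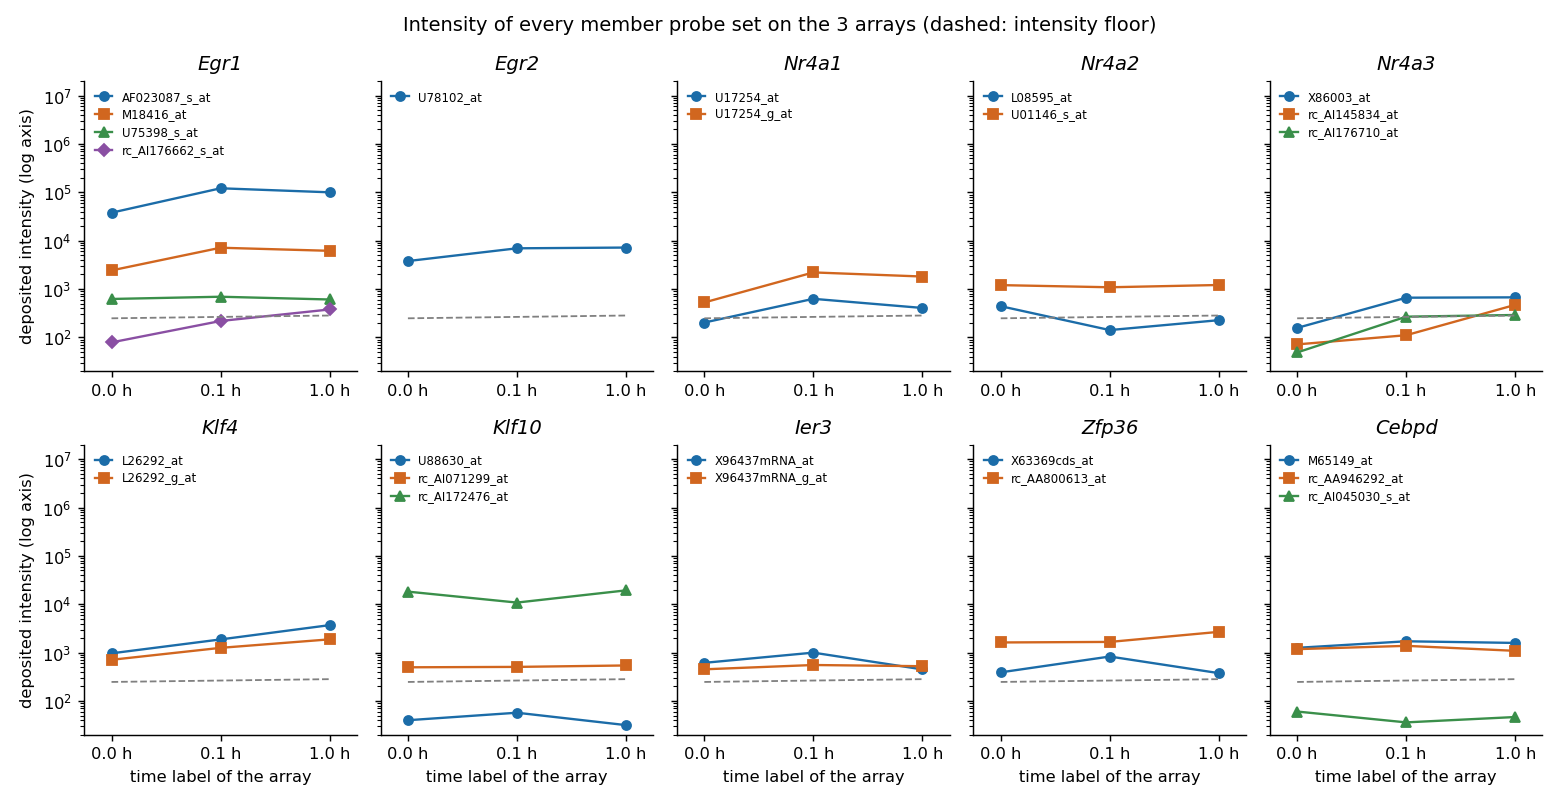
Deposited intensity (log axis) of each of the 24 probe sets on the 3 arrays, 1 panel per gene and 1 line per probe set, with the intensity floor as a dashed line; there is 1 array per time label and so no error bar. The upper probe sets of Egr1 and that of Nr4a1 are highest at 0.1 h, both of Klf4 are highest at 1.0 h, and all 3 of Nr4a3 lie below the floor at 0.0 h.

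Between 0.1 h and 0.0 h, 4 of the 16 measured probe sets were at least 2-fold higher, from Egr1 (2), Nr4a1 and Zfp36, and none was 2-fold lower. Of all 4759 probe sets measured in this comparison, 6.32% were higher and 4.20% lower by that much. The members' log2 differences ran from -0.72 (Klf10) to 2.10 (Nr4a1) with a median of 0.61, beside 0.026 over all probe sets. In 14 of the 16 the 0.1 h array was the higher, beside 52.0% of all. Under the spike-in scaling, 12 of the 16 kept their direction. Of the 16, 7 lay within 1 SD of all probe sets (0.53) of no difference. Since the genes were chosen partly by these differences, nothing is read from these counts.

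Between 1.0 h and 0.0 h, 5 of 16 were at least 2-fold higher, from Egr1 (2), Nr4a1 and Klf4 (2), and none was 2-fold lower. Over all 4792 probe sets the shares were 3.01% higher and 2.46% lower. The median of the members was 0.22, beside 0.029 over all, with a range from -0.51 (Ier3) to 1.88 (Klf4), and 11 were higher and 5 lower, beside 52.5% higher of all. Of the 16, 8 lay within the SD of 0.44 of all probe sets. With the spike-in scaling, 12 of the 16 kept their direction. The 0.0 h array is shared by both comparisons, and they are not independent.

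Between 1.0 h and 0.1 h, 19 probe sets of all 10 genes were measured. None was at least 2-fold higher, and 2, of Ier3 and Zfp36, were at least 2-fold lower, beside 3.83% higher and 5.50% lower of all 4780 probe sets. The median was -0.17, beside -0.011 over all, with 7 higher and 12 lower (49.1% of all were higher) and a range from -1.24 (Ier3) to 0.89 (Klf4). Within the SD of 0.56 lay 13 of the 19. This comparison depended on the scaling more than the others. When the arrays were scaled instead to an equal mean of 9 spike-in probe sets, the median over all probe sets became 0.46, that of the members 0.30, Ier3 and Zfp36 came under 2-fold at -0.77 and -0.76, and 3 probe sets, of Klf4, Klf10 and Zfp36, were at least 2-fold higher instead. That is 3 of 19, beside 16.5% of all probe sets under this scaling.

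**Figure D3:**
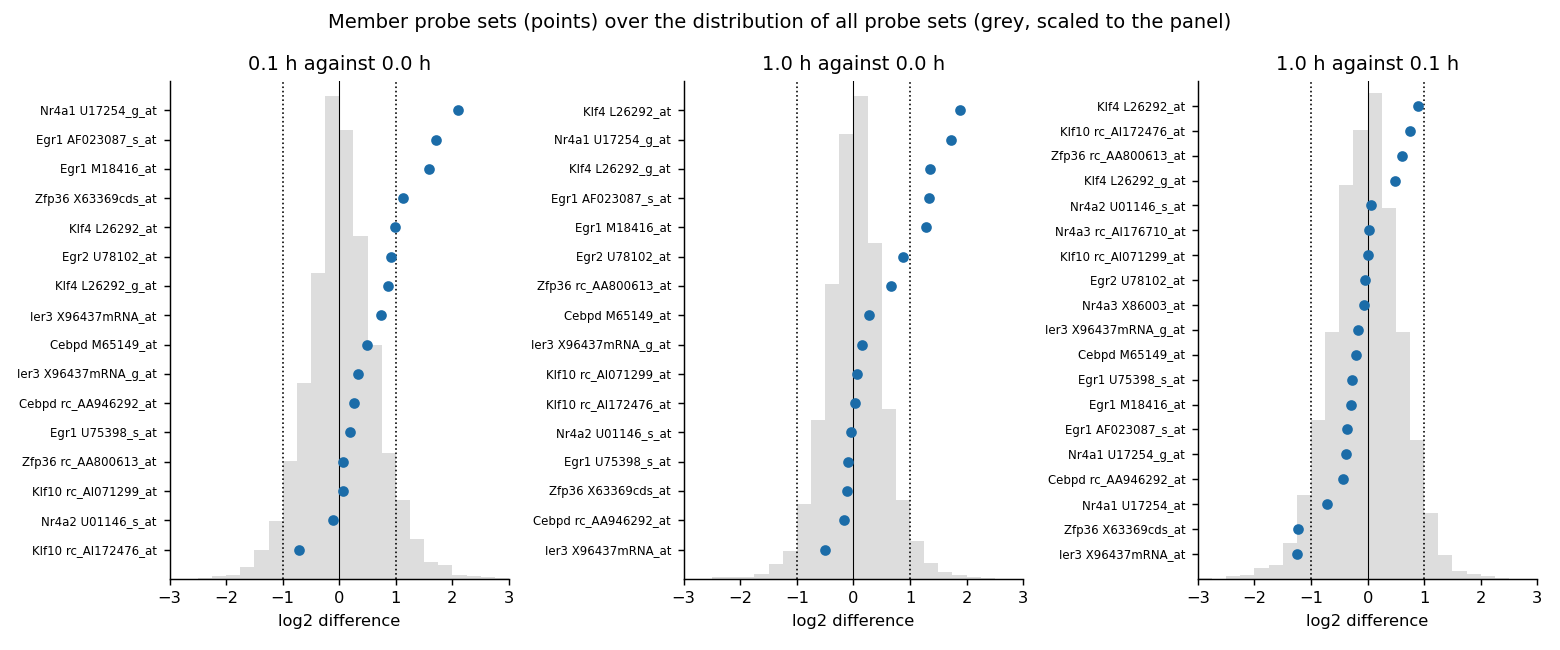
Log2 differences of the measured probe sets of the 10 genes (blue points, ordered by value) in the 3 comparisons, over the distribution of all probe sets measured in that comparison (grey bars, height scaled to the panel); dotted lines mark 2-fold. Nr4a1 and Egr1 lead at 0.1 h against 0.0 h, Klf4 and Nr4a1 at 1.0 h against 0.0 h, and Ier3 and Zfp36 are the lowest at 1.0 h against 0.1 h.

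How far the probe sets of a gene told the same story was read in the 6 of the 10 genes with 2 or more probe sets measured throughout (Egr1, Klf4, Klf10, Ier3, Zfp36 and Cebpd). At 0.1 h against 0.0 h all measured probe sets of a gene had the same sign in 5 of the 6, beside 61.2% of all 698 such genes on the array. At 1.0 h against 0.0 h this held in 2 of the 6, Klf4 and Klf10, beside 55.6% of all, and at 1.0 h against 0.1 h in 5 of the 6, beside 58.9%. These counts rest partly on signs of differences near 0 and depend on the scaling. Under the spike-in scaling, U75398_s_at (Egr1), rc_AA800613_at (Zfp36) and rc_AA946292_at (Cebpd) fell to -0.09, -0.20 and -0.02 at 0.1 h against 0.0 h. Both Klf10 probe sets were then below 0. At 1.0 h against 0.0 h, U75398_s_at, X63369cds_at (Zfp36) and rc_AA946292_at rose to 0.10, 0.08 and 0.02. The range between probe sets of Egr1 was 1.52 at 0.1 h against 0.0 h, where the median range over all such genes was 0.42. Klf4 had a range of 0.13 there and of 0.53 at 1.0 h against 0.0 h.

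The plot of scalings sets the same differences side by side for the main scaling, the values as deposited, quantile and cyclic loess normalisation and the spike-in scaling. The 2 brighter Egr1 probe sets and U17254_g_at of Nr4a1 were at least 2-fold higher on both later arrays under all 5, with lowest log2 values at 0.1 h of 1.44, 1.32 and 1.82 under the spike-in scaling. Both Klf4 probe sets were at least 2-fold higher at 1.0 h under all 5. X63369cds_at of Zfp36 came under 2-fold at 0.1 h with quantile normalisation, at 0.99, and with the spike-in scaling, at 0.84. Egr2 passed 2-fold at 1.0 h with the spike-in scaling, at 1.07.

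**Figure D4:**
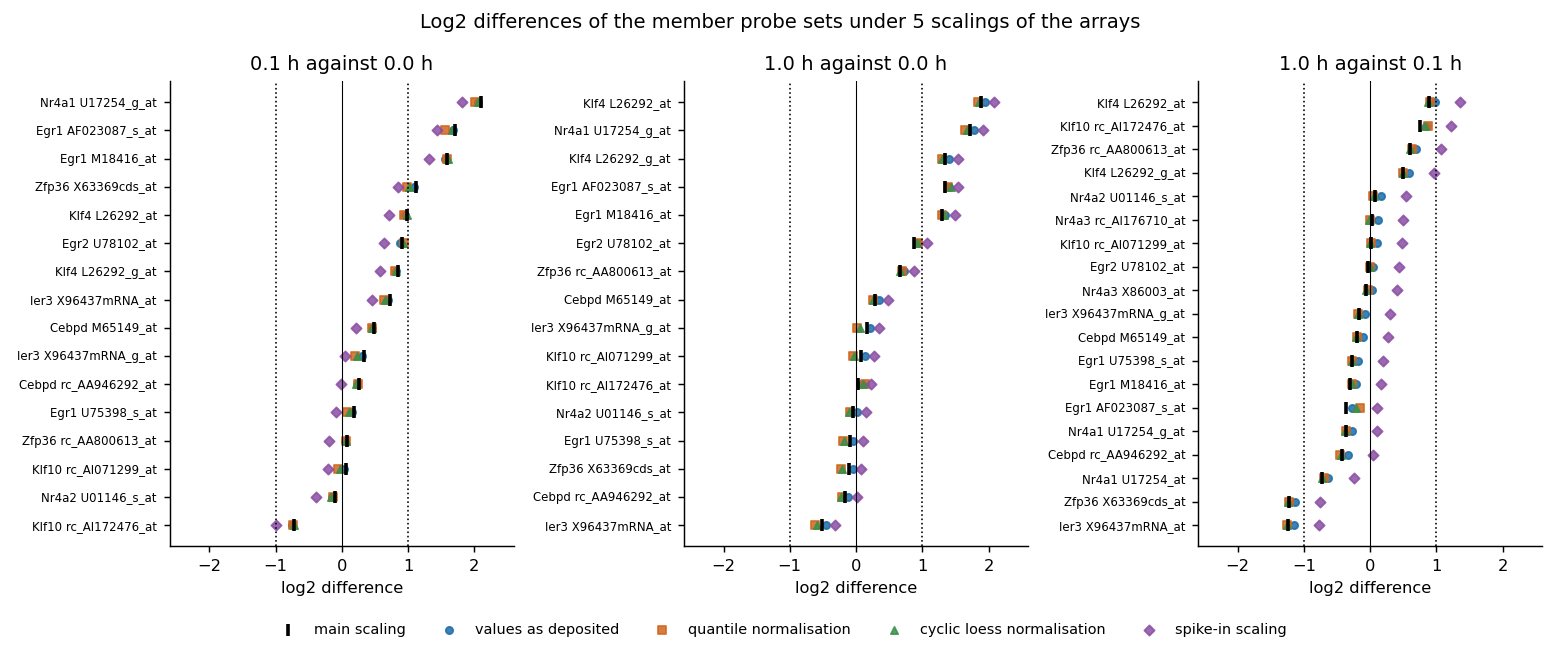
Log2 differences of the measured probe sets under 5 scalings of the arrays (black bar: main scaling; symbols: alternatives), ordered by the main value, 1 panel per comparison, with 2-fold as dotted lines. The spike-in scaling moves every probe set down at 0.1 h against 0.0 h and up in the other comparisons, and leaves AF023087_s_at and M18416_at of Egr1 and U17254_g_at of Nr4a1 beyond 2-fold against 0.0 h on both later arrays, and both Klf4 probe sets beyond it at 1.0 h only.

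Other genes of the response were read from lists, each gene from its brightest probe set, with the 10 genes left out. Among other Egr and Klf genes and partners of the 3 families, 7 were measured in each comparison. Klf6 had 1495, 1974 and 3112 and was 2.00-fold higher at 1.0 h than at 0.0 h, the 1 gene of the 7 at 2-fold against 0.0 h, beside 3.01% of all probe sets. The retinoid receptor gene Rxra, whose product pairs with Nr4a1 and Nr4a2, had 321.1, 604.6 and 298.5, 1.93-fold higher at 0.1 h than at 0.0 h and 2.16-fold lower at 1.0 h than at 0.1 h. Egr3 was above the floor only at 0.0 h, with 381.6, and Egr4 stayed within 2-fold with 1044, 766.2 and 1297. The median log2 differences of this list from 0.0 h were 0.43 at 0.1 h and 0.14 at 1.0 h.

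Of 4 measured AP-1 subunit genes, 1 was at least 2-fold higher on each later array. This was Fos, with 1600, 3465 and 3669, and the shares over all probe sets were 6.32% and 3.01%. Of the other immediate early genes, 2 of 20 were at least 2-fold higher at 0.1 h than at 0.0 h. They were the cyclooxygenase gene Ptgs2 (570.3, 1890 and 1413) and Ier5 (303.7, 835.6 and 213.3). The 0.0 h value of Ier5 was not far above the floor of 247.7, and its 1.0 h value was below the floor of 282.8. The neurotrophin gene Bdnf was 2.35-fold lower at 0.1 h than at 0.0 h, 1 of the 20, beside 4.20% of all probe sets. At 1.0 h, Ptgs2 was the 1 of 19 at least 2-fold higher. Set against 6.32% and 3.01% of all probe sets, the counts of higher genes lie near the background. Between the later arrays Bdnf (913.2, 379.7 and 1065) was 2.63-fold higher at 1.0 h, 1 of 18 measured, beside 3.83% of all probe sets. Medians were 0.29 and 0.21. Messages known to be bound by Zfp36 had 3 of 8 measured genes at least 2-fold higher at 0.1 h, namely Ptgs2, Cxcl2 (380.5, 1176 and 1187) and Il6 (451.8, 907.1 and 1133). At 1.0 h, 4 of 9 were, with Ccl2 at 2.01-fold as the fourth, beside 6.32% and 3.01% of all probe sets. The medians of this list were 0.68 and 0.95, and it overlaps the former in Ptgs2 and Myc.

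By the distance between log2 values centred over the 3 arrays, the genes nearest to Egr1 (AF023087_s_at) were Pop1, Orai1 and Gsta1, at 0.05, 0.07 and 0.09. Those nearest to Nr4a1 (U17254_g_at) were Glod4, Map2k1 and Cabin1, at 0.13, 0.15 and 0.23. With 3 arrays, a distance rests on 3 values per gene and is a description only.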

How the data were processed

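Each of the 3 rat RNA samples had its own Affymetrix array, and the time label alone set its group. The deposited values are linear intensities, 1 per probe set, per the file headers a column for each sample; how they were summarised, and with which software, is not stated there. The mean of the deposited intensities without the highest and lowest 2% was nearly equal, at 2503.7, 2503.9 and 2503.7.

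Of 8799 probe sets, 59 controls were left out. The platform annotation gave 1 symbol to 7006, several to 308 and none to 1426; 6985 matched RefSeq by gene ID, with 0 symbols changed. Intensities were taken to log2, scaled to the array median, floored at the 40th percentile (264.7 scaled) and shifted to equal medians above the floor (total shifts of 0.008, 0.041 and -0.049). A probe set counted when at least 2-fold apart. Bounds ("at least") set the brighter array against the floor of the dimmer. The scaling was tested on made-up arrays with known answers.

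The 10 genes, the lists and the motifs were chosen with earlier results of these data known. From each list, members at least 2-fold apart were to be named, largest first, up to 4 per direction, otherwise the brightest 2. Genes named outside this rule were chosen after their values were seen. Among them were Egr3, Egr4, Rxra at 0.1 h, Creb1, Nfkbia, F3, and Ptprc, Itgam, Th, Dbh, Pnmt, Tph1 and Ddc as markers. For likeness, the 3 nearest genes to each member at least 2-fold above 0.0 h on both later arrays on its brightest probe set were named. Alternatives were other scalings (limma 3.58.1, R 4.3.3), floors at the 20th or 60th percentile or none, 1.5-fold in place of 2-fold, and 1 value per gene. Python 3.11.15 was used otherwise.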

Additional observations from a re-analysis of the deposited data

How the results depend on the processing

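No paired analysis was possible because there is 1 array per time label, and for the same reason no array could be left out. Without replicates, a value is said to have moved when it shifted by more than the SD of all probe sets' log2 differences or, for a median, changed sign. A count is said to have moved when it shifted by at least 1.5 times in either direction. The 4 probe sets at least 2-fold apart at 0.1 h against 0.0 h became 8 (7 higher, 1 lower) when the floor was lowered to the 20th percentile, 2 when it was raised to the 60th, 9 without a floor (8 higher, 1 lower), 9 at 1.5-fold (8 higher, 1 lower), and 2 genes with the brightest or the mean of all probe sets per gene. The 5 at 1.0 h against 0.0 h became 8 with the lower floor (7 higher, 1 lower), 10 without a floor (9 higher, 1 lower), and 3 genes with the brightest or the mean; their median of 0.22 was 0.79 with the higher floor and 0.67 on the brightest probe sets. The 2 at 1.0 h against 0.1 h became 3 with the lower floor and without a floor (1 higher, 2 lower in both), 3 with the spike-in scaling (all higher), 0 with the higher floor and with the mean, 1 on the brightest probe sets and 6 at 1.5-fold; their median of -0.17 became 0.30 with the spike-in scaling. A lower floor takes in the dim probe sets of Nr4a3, Egr1, Nr4a1 and Nr4a2. The shares over all probe sets with other floors, at 1.5-fold or per gene are not given here. Nothing is therefore read about the members from the change in these counts. No probe set at least 2-fold apart changed sign under another scaling. Medians at 0.1 h against 0.0 h ran from 0.33 to 0.74 over all alternatives. The spike-in scaling, an alternative first added by an earlier analysis that had seen the data, moved the median over all probe sets to -0.25, 0.23 and 0.46 in the 3 comparisons and the share of higher among those 2-fold apart from 60.1%, 55.0% and 41.0% to 23.3%, 81.5% and 93.1%; as deposited the last was 55.1%. Under the spike-in scaling, 12 of 16 members kept their direction at 0.1 h against 0.0 h. The same held for 12 of 16 at 1.0 h against 0.0 h and for 10 of 19 at 1.0 h against 0.1 h.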

Other observations

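Kinases and factors upstream of immediate early genes were measured for 11 genes at 0.1 h against 0.0 h, of which 3 were at least 2-fold higher, beside 6.32% of all probe sets. These were Map2k1 (4295, 16434 and 12698 at 0.0 h, 0.1 h and 1.0 h), Map2k2 (4805, 13219 and 11082), which encode the kinases that activate ERK, and the p38 kinase gene Mapk14 (6004, 12295 and 6646). At 1.0 h against 0.0 h, 2 of 12 were higher, both Map2k genes, and Prkar2b, a regulatory subunit of protein kinase A, was 2.10-fold lower, beside 3.01% higher and 2.46% lower of all. Creb1 was below the floor on all 3 arrays. Nfkbia, a target and inhibitor of NF-kappaB, had 205.1, 397.3 and 641.1 and was below the floor at 0.0 h.

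Genes known as targets of Egr, Nr4a or C/EBP factors had 1 of 9 measured members at least 2-fold higher at 0.1 h, Cd44 (349.4, 683.8 and 532.5), and 1 of 11 at least 2-fold lower at 1.0 h, Lhb (925.3, 262.5 and 435.5). These are single genes, beside 6.32% higher at 0.1 h and 2.46% lower at 1.0 h of all probe sets. The tissue factor gene F3 had 491.4, 463.1 and 982.6, 1.92-fold higher at 1.0 h than at 0.0 h. Of the other C/EBP genes, Cebpb had 1371, 2366 and 1660 and Ddit3 4570, 5120 and 2942, none 2-fold apart, while Cebpa, Cebpe and Cebpg were below the floor on all 3 arrays.

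Among markers of the tissue, 1 of 10 measured pinealocyte genes was at least 2-fold higher at 0.1 h than at 0.0 h, beside 6.32% of all probe sets. It was the melatonin synthesis gene Asmt (5715, 13469 and 9488), at 2.41-fold. At 1.0 h against 0.0 h, 1 of 10 was higher and 1 lower, beside 3.01% and 2.46% of all. Aanat (251.6, 389.3 and 523.7), another enzyme of that pathway, was 2.00-fold higher, from a 0.0 h value near the floor of 247.7. Tph1 (21954, 16498 and 23409) and, of the adrenal medulla list, Ddc (19537, 19622 and 13672) were not 2-fold apart. Pdc (19376, 22445 and 9483) was 2.13-fold lower at 1.0 h than at 0.0 h and 2.52-fold lower than at 0.1 h. Of 6 measured adrenal medulla markers, 1 was at least 2-fold higher at 1.0 h than at 0.1 h, beside 3.83% of all probe sets. It was Npy (541.0, 362.6 and 842.3), at 2.18-fold. Of 5 measured glial markers, 1 was at least 2-fold higher at 0.1 h than at 0.0 h, beside 6.32% of all probe sets. It was S100b (1328, 3561 and 2439), at 2.74-fold, while the median of the list was -0.04. Another 3 of the 8 glial markers with a probe set were below the floor on all 3 arrays. Of 8 measured fibroblast and smooth muscle markers, 1 was at least 2-fold lower at 0.1 h than at 0.0 h, beside 4.20% of all probe sets. At 1.0 h against 0.0 h, 1 of 8 was higher, beside 3.01%. These were the collagen genes Col1a2 (25426, 11842 and 23813), 2.10-fold lower, and Col1a1 (3303, 4709 and 7405), 2.15-fold higher. Among leukocyte markers, 2 of 8 measured were at least 2-fold higher at 1.0 h than at 0.1 h, beside 3.83% of all probe sets. They were Coro1a and Cd74 (538.6, 389.4 and 834.9), each at 2.01-fold. No endothelial marker was 2-fold apart where measured, and the brightest were Kdr (1481, 1193 and 1322) and Flt1 (788.2, 643.1 and 1289). Of 7 adrenal cortex markers with a probe set, 4 were below the floor on all 3 arrays. Only 1 or 2 were measured in a comparison, and neither was 2-fold apart. These were Fdx1 (18608, 10818 and 15599) and Cyp21a1 (393.6, 182.5 and 530.5), the latter below the floor at 0.1 h.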
